A study of Gallus gallus with 6 samples.

Results

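P2RY6, KCNJ3, ZBTB32, ASTL, ANXA1 and UPP1 are 6 of the 24098 genes measured in whole chicken embryos with and without zinc oxide (ZnO) nanoparticles, and all 6 passed the filter that left 13311 genes for testing. They were selected on the measured values themselves, because all 3 treated libraries lay on one side of all 3 controls, and because none belongs to the metal, heat shock or oxidant genes usually followed after such an exposure. The difference between the groups is therefore what chose them, and it is given below as a description, with no test on any of them.

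The embryos (Gallus gallus) were at Hamburger-Hamilton stage 10, when the neural tube is closing, the first somites are in place and the heart tube has formed. The control group and the ZnO group held 3 RNA-seq libraries each, called control 1 to 3 and ZnO 1 to 3. The strain, dose, route and length of exposure, and the number of embryos per library, are not stated in the labels, and no other agent or genotype is named for either group. The labelled age windows begin at 34 hours in every sample and end at 39 to 41 hours in controls and at 42 to 44 hours in treated embryos, so age as labelled and treatment cannot be told apart. No 2 samples share an end, and the ends form an unbroken run of whole hours, so it is uncertain whether they are measured ages. Whether the libraries of a group are separate animals is not stated, so any p-value measures the spread between these libraries, which may be technical.

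The genes have unrelated products. P2RY6 encodes a receptor on the cell surface that senses extracellular UDP and signals through Gq proteins and calcium. Its chicken form was first described under the name P2Y3. KCNJ3 encodes GIRK1, a subunit of the potassium channels that open when G proteins are released by receptors such as the muscarinic receptor of the heart, and it works as a partner of other subunits, KCNJ5 in heart and KCNJ6 in brain. ZBTB32 is a zinc finger protein with a BTB domain, a class of DNA-binding repressors. ASTL is a secreted metalloprotease of the astacin family, known from mouse for trimming the egg coat after fertilisation. ANXA1, annexin A1, binds membrane phospholipids when calcium is present and is known in mammals for damping inflammation. UPP1, uridine phosphorylase, splits uridine into uracil and a ribose phosphate, a step of pyrimidine salvage and breakdown.

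The deposited values are FPKM, read pairs or reads per length of gene model and per depth of library, and can be compared between genes because they are per length. The depth recovered from the steps between the values was 18208501 to 19843561 reads per library. Among the 13311 genes whose mean reached 1 FPKM, 0 (0%) passed an adjusted p of 0.05 between the groups in limma, against 754 at an unadjusted p under 0.05 and 0 by limma-voom on the recovered reads. All ZnO libraries lay above all controls for 745 genes (5.6%) and below them for 784 (5.89%), 1529 genes (11.5%) in all. All of the 6 genes followed here belong to the 1529, by choice. ZnO 1 stood apart from ZnO 2 and ZnO 3 in this series. Its score on the first principal component of the genes tested, -36.3, lay beside control 2 at -23.4, while ZnO 2 and ZnO 3 lay at 17.5 and 28.9. Its FPKM summed to 480047, against 531480 to 559992 in the others. Checked against markers of the labelled stage, all 10 neural tube, 8 neural crest, 8 somite and 8 heart markers reached that mean.

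P2RY6 (gene ID 396114) had 1.22, 1.51 and 1.04 FPKM in control 1, 2 and 3, against 4.24, 3.90 and 3.43 in ZnO 1, 2 and 3. Every treated library was thus well above every control, and ZnO 1 was the highest of all. The group means were 1.26 ± 0.238 and 3.86 ± 0.404 FPKM (SD, n = 3), a ratio of 3.07. On the log2(FPKM + 1) scale, which understates changes of low values, the difference of means was 1.11. The gene was weakly expressed. It had 24 to 32 reads in each control library and 74 to 90 in each treated one, so counting error was large, and the SD between control libraries, 18.9% of the mean, was about the 19.1% that counting alone gives at these reads. The exact Poisson 95% intervals cover counting error only. Their upper bound was 2.13 FPKM at most in controls, and their lower bound was 2.69 FPKM at least in treated embryos. The gene was chosen because its groups lie apart, so the distance between these intervals is a description and no test of the difference. In every library, P2RY6 ranked low among the 13311 genes, above 3.17% to 6.58% of them in controls and above 21.0% to 24.0% in treated embryos. The length of the gene model that gave whole reads, 1163 bp, equals the length of the gene in the RefSeq table.

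**Figure D1:**
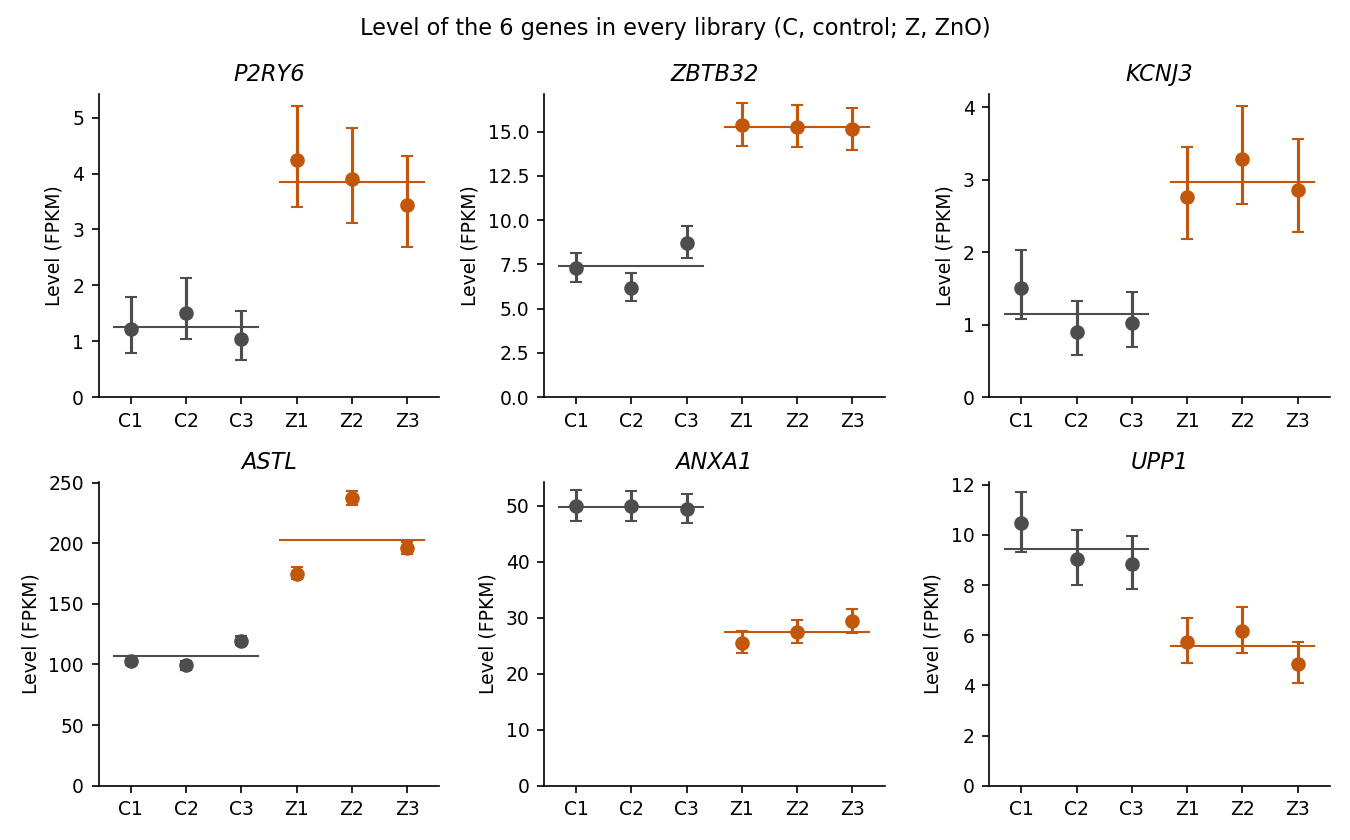
Level of each gene in FPKM (y axis, from 0) in control libraries C1 to C3 (grey) and ZnO libraries Z1 to Z3 (orange). Points are libraries, bars are exact Poisson 95% intervals of the reads, horizontal lines are group means. The control and ZnO means are 1.26 and 3.86 FPKM for P2RY6 and 49.8 and 27.4 FPKM for ANXA1, and in each of the 6 panels the groups do not overlap, which is how the genes were chosen.

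Genes around the P2RY6 signal had higher and lower means in similar numbers. Among 22 other tested genes for nucleotide receptors, ectonucleotidases and pannexin channels, which release, sense and break down extracellular nucleotides, 9 had higher and 13 lower means in treated embryos. Their median difference was -0.06, beside -0.03 over all other genes tested, and 1 of the 22 (4.55%) had groups that did not overlap, beside 11.4% of all other genes tested. The median ran from -0.14 without control 3 to 0.08 without ZnO 3, and was 0.02 without ZnO 2. None of the 22 was called. The gene with groups apart was P2RY1, the ADP receptor, with 19.5, 14.4 and 22.1 FPKM in the ZnO libraries, each above the highest control at 13.1 and the control mean of 12.6 ± 0.579 FPKM (SD, n = 3), a ratio of 1.48 (limma, adjusted p = 0.827). P2RY2, a receptor for ATP and UTP that lies close to P2RY6 in the RefSeq table, had 2.45, 3.12 and 1.42 FPKM in the control libraries against 4.09, 1.80 and 1.15 in the ZnO libraries. Its groups overlapped, and only ZnO 1 stood above all controls. P2RY4 overlapped too, with 0.397 to 2.17 FPKM in the control libraries against 1.12 to 2.61 in the ZnO libraries. P2RY8 had under 1 FPKM in every library. The ectonucleotidases ENTPD1 (ratio 1.05) and ENTPD2 (0.992), which remove phosphates from nucleotides, and NT5E (0.893), which makes adenosine from AMP, had overlapping groups. Of 13 tested genes of the Gq and calcium relay, which carries the P2RY6 signal into the cell, 7 were higher and 6 lower. Their median difference was 0.06 (-0.03 without ZnO 3), with 0 non-overlapping, beside 11.4% of all other genes tested, and 0 called.

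KCNJ3 (gene ID 396369) had 1.50, 0.900 and 1.02 FPKM in the control libraries against 2.76, 3.29 and 2.86 in the ZnO libraries. The treated libraries were all above the highest control, control 1. The means were 1.14 ± 0.319 and 2.97 ± 0.279 FPKM (SD, n = 3), a ratio of 2.60 and a difference of 0.90 on the log2(FPKM + 1) scale. KCNJ3 was as weakly expressed as P2RY6, with 25 to 42 reads per control library and 77 to 95 per treated library. The control SD was 27.9% of the mean, above the 17.5% that counting alone gives. The treated SD was 9.38%, beside 10.9% from counting. The Poisson intervals of KCNJ3, which leave out the spread beyond counting, barely separated. They lay at 2.03 FPKM at most in controls and 2.18 FPKM at least in treated embryos. This too is only a description, since the gene was chosen for groups that lie apart. GALNT13, a glycosyltransferase gene beside KCNJ3 in the RefSeq table, was lower in each treated library, at 5.76, 5.69 and 4.08 FPKM against 5.83, 6.83 and 5.93 in the controls (limma, adjusted p = 0.957). NR4A2, on the other side, was under 1 FPKM in every library.

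The subunits that GIRK1 pairs with were also low. KCNJ5, its partner in heart, was lower in each treated library, at 1.84, 2.18 and 2.27 FPKM in the control libraries against 1.76, 1.76 and 1.40 in the ZnO libraries (ratio 0.782, limma, adjusted p = 0.957). The groups barely separated, since control 1 and ZnO 1 lay close together. KCNJ6, its partner in brain, was almost silent, at 0.0249 to 0.0997 FPKM over the 6 libraries. KCNJ2, an inward rectifier that does not need G proteins, overlapped between groups, with ZnO 1 highest at 3.68 FPKM. Over 9 other tested inward rectifier and associated genes, 3 were higher and 6 lower, the median difference was -0.23, 1 (11.1%, beside 11.4%) was non-overlapping and 0 were called. That median rests on single libraries and on the filter, at -0.06 without ZnO 2, -0.09 without control 1, -0.14 without control 3 and -0.04 with no filter. Among 19 tested G protein and receptor genes that feed GIRK channels, 9 were higher and 10 lower. The median was -0.01, from -0.06 without control 2 to 0.08 without ZnO 1. The groups did not overlap for 2 (10.5%, near the 11.4% of all other genes tested), the G protein gamma subunits GNG10 and GNG11. GNG10 stood at 19.7 ± 1.51 and 13.9 ± 1.54 FPKM, and GNG11 at 52.7 ± 8.94 and 36.3 ± 1.95 FPKM (SD, n = 3; limma, adjusted p = 0.801 and 0.827).

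None of the tissue markers below was called. The summed level of 8 heart markers was 1201 to 1375 FPKM in the control libraries against 977 to 1026 in the ZnO libraries, with 7 of the 8 lower in mean and 4 below all controls in every treated library. Over all other genes tested, 7462 of 13305 were lower in mean, and 5.89% of all genes tested lay below all controls. Of 10 neural tube markers, 8 had higher means in treated embryos and 2 lay above all controls, beside 5.6% of all genes tested, and their summed level overlapped, at 182 to 199 and 169 to 272 FPKM. The 8 somite markers summed to 195 to 224 FPKM in controls and to 134 to 187 FPKM in treated embryos, with 3 of the 8 below all controls, beside the same 5.89%. Summed levels of the neural crest, notochord, blood and endothelium, and endoderm and yolk sac markers overlapped, at 152 to 182 and 157 to 176 FPKM for the 8 crest markers, of which 4 had higher and 4 lower means. Groups did not overlap for 2 of the 8 crest markers (25%, beside 11.4% of all other genes tested), 1 above and 1 below all controls. The same held for 1 of 4 notochord, 1 of 9 endoderm and yolk sac and 0 of 7 blood and endothelium markers. The part of these tissue markers in the KCNJ3 values was not tested. In whole-embryo RNA, fewer cells of a type and less RNA per cell cannot be told apart, for any of the genes.

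ZBTB32 (gene ID 419759) had 7.29, 6.18 and 8.73 FPKM in the control libraries against 15.3, 15.3 and 15.1 in the ZnO libraries. The treated libraries were almost identical, and each was far above control 3, the highest control. The means were 7.40 ± 1.28 and 15.2 ± 0.115 FPKM (SD, n = 3), a ratio of 2.06 and a difference of 0.96 on the log2(FPKM + 1) scale. With 254 to 391 reads per control library and 633 to 653 per treated library, the treated libraries differed by 0.756% of their mean (SD), less than the 3.95% that counting error alone gives, so this closeness is no measure of precision. In controls the SD, 17.3% of the mean, was above the counting error of 5.63%.

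The identity of this gene needs a remark. The RefSeq table names gene ID 419759 ZBTB32 and lists ZBTB16 as its synonym, and it holds no other row under either name. Its nearest protein-coding neighbours there with values in the files are HTR3A, a serotonin receptor gene, and RBM7, with 1 further gene between it and RBM7. Human ZBTB16, known also as PLZF, lies beside HTR3A, whereas human ZBTB32 lies on another chromosome. ZBTB16 is a repressor known from mouse for limb and skeletal patterning and for the upkeep of spermatogonial stem cells, while ZBTB32 is known from mammalian lymphocytes. The values above belong to the gene ID, whichever name is right. Both neighbours overlapped between groups, with HTR3A at 2.31 to 4.06 FPKM in the control libraries against 2.21 to 2.88 in the ZnO libraries, and RBM7 at 47.1 ± 6.45 and 53.4 ± 11.7 FPKM (SD, n = 3).

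Among 32 other tested genes of the BTB zinc finger class, 22 had higher and 10 lower means in treated embryos, the median difference was 0.03 (0.07 without ZnO 2), 2 (6.25%, beside 11.4%) had non-overlapping groups and 0 were called. Those 2 were PATZ1, with 14.1 ± 2.40 and 17.1 ± 1.36 FPKM, and ZBTB45, with 10.7 ± 0.189 and 11.8 ± 1.05 FPKM (SD, n = 3; limma, adjusted p = 0.943 and 0.972). BCL6, a repressor of the same class, overlapped, with ZnO 1 at 12.1 FPKM and all other libraries between 6.91 and 8.03 FPKM. GATA3 is a transcription factor whose action ZBTB32 is known to block in mouse T cells, which bears on this gene only if that name is right. It had 6.45 to 7.99 FPKM in the control libraries against 5.44 to 9.36 in the ZnO libraries, which overlap.

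ASTL (gene ID 423176) was the most abundant of the 6, with 103, 99.1 and 120 FPKM in the control libraries against 175, 237 and 196 in the ZnO libraries. All treated libraries were above control 3, the highest control, with ZnO 2 the highest of all. The means were 107 ± 10.9 and 203 ± 31.8 FPKM (SD, n = 3), a ratio of 1.89 and a difference of 0.91 on the log2(FPKM + 1) scale. ASTL had 2731 to 6802 reads per library, so counting error (1.81% and 1.32% of the group means) was far below the spread between libraries (10.2% and 15.7%). It ranked above 93.1% to 94.5% of genes in controls and above 97.0% to 97.5% in treated embryos.

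TLL1 and TLL2, close relatives of the procollagen protease BMP1, had 5.70 to 9.53 and 3.90 to 5.66 FPKM over all libraries, and both overlapped between groups. Of 4 other tested genes in the list of astacins, their enhancers and chordin, 1 was higher and 3 were lower. Their median difference was -0.15, with 0 non-overlapping, beside 11.4% of all other genes tested, and 0 called. The median was 0.05 without control 2 or without ZnO 3. Most egg coat and oocyte genes, the setting in which ASTL is known from mouse, had a mean under 1 FPKM here. Of 12 found in the files, 1 had a mean of at least 1 FPKM, the egg coat gene ZP3, with a difference of -0.01. ZP3 itself was not silent, at 8.96 to 11.1 FPKM in the control libraries and at least 7.20 FPKM in the ZnO libraries. Of 6 germ cell markers, 3 had a mean of at least 1 FPKM, with a summed level of at least 9.20 and at most 11.3 FPKM in any library, and DAZL and DDX4 were under 1 FPKM in every library. SYT13, a synaptotagmin gene next to ASTL in the RefSeq table, was also higher in each treated library, at 0.926, 0.723 and 1.16 FPKM in the control libraries against 2.17, 1.61 and 1.63 in the ZnO libraries (ratio 1.93, limma, adjusted p = 0.827). FUT8, on the other side of ASTL, overlapped, with 7.92 to 10.8 and 7.85 to 9.93 FPKM. The labels do not say whether counting used strand, so reads of overlapping genes cannot be told apart.

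ANXA1 (gene ID 404271) had 50.0, 49.9 and 49.5 FPKM in the control libraries against 25.5, 27.4 and 29.3 in the ZnO libraries. Each treated library was far below every control, and the controls were nearly equal. The means were 49.8 ± 0.252 and 27.4 ± 1.90 FPKM (SD, n = 3), 1.81 times higher in controls, and the difference on the log2(FPKM + 1) scale was -0.84. The control SD was 0.506% of the mean, below the 2.76% that counting error alone gives at 1279 to 1383 reads per library, so it understates the error of these values. The treated libraries had 657 to 766 reads.

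Of 13 other tested annexin, S100 and associated genes, 4 were higher and 9 lower in treated embryos, with a median difference of -0.11 and 0 called. The groups were non-overlapping for 0 of the 13, beside 11.4% of all other genes tested. A list this short cannot show a share below that. The median was 0.08 without control 3 and 0.06 without ZnO 1. ANXA2, which works at membranes with S100A10, had 91.6 to 132 FPKM in the control libraries against 72.7 to 104 in the ZnO libraries. ANXA5, which binds exposed phosphatidylserine, had 56.2, 54.1 and 61.1 FPKM in the control libraries against 33.8, 61.8 and 64.5 in the ZnO libraries. S100A10 was at 106 FPKM and S100A11, a binding partner of ANXA1, at 96.3 FPKM in ZnO 1, below every other library, and both overlapped between groups. ANXA6 (ratio 1.13) overlapped as well. In ANXA2, ANXA5, S100A10 and S100A11, ZnO 1 was thus the lowest library of all 6, as it was for ANXA1. Unlike in ANXA1, control 2 was the lowest control in each of these relatives, and ZnO 2 and ZnO 3 lay within or above the control range. That ANXA1 was low in all 3 treated libraries is how it was chosen, a rule its relatives were not held to. The largest difference in the list, -0.60, was that of S100A6, a small calcium-binding protein.

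Epithelia are known to hold ANXA1 in mammals. The 10 surface ectoderm markers, of the outer epithelium of the embryo, summed to 2194 to 2267 FPKM in the control libraries against 1764 to 2120 in the ZnO libraries. Yet 7 of the 10 had higher means in treated embryos, and 0 had non-overlapping groups, beside 11.4% of all other genes tested. Of 8 leukocyte and macrophage markers, cells known to hold ANXA1 in mammals, 5 (C1QA, CSF1R, CYBB, ITGB2 and PTPRC) were under 1 FPKM in every library, none was at 0 in all, and 1 was tested, whose groups overlapped. ANXA1 lies on the Z sex chromosome in the RefSeq table, where males carry an extra copy of each gene. Of 555 other tested Z genes, 429 had lower means in treated embryos, beside 7462 of 13305 over all other genes, with a median difference of -0.15 beside -0.03. The groups did not overlap for 83 (15.0%, beside 11.4%), of which 70 lay below all controls and 13 above, against 782 and 741 of the 13305. The summed level of 35 tested genes on chromosome W, which only females carry, was 425 to 1194 FPKM in the control libraries against 707 to 1101 in the ZnO libraries, and overlapped. The part of these in the ANXA1 values was not tested.

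UPP1 (gene ID 420942) had 10.5, 9.05 and 8.84 FPKM in the control libraries against 5.74, 6.17 and 4.87 in the ZnO libraries. All treated libraries were below the lowest control, control 3. The means were 9.46 ± 0.893 and 5.59 ± 0.661 FPKM (SD, n = 3), 1.69 times higher in controls, and the difference on the log2(FPKM + 1) scale was -0.67. UPP1 had 261 to 304 reads per control library and 143 to 185 per treated library. Its Poisson intervals lay at 7.84 FPKM at least in controls and 7.12 FPKM at most in treated embryos. Their distance is only a description, since the gene was chosen for groups that lie apart.

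Genes of the pathway around UPP1 had a median difference near 0. Of 30 other tested genes of pyrimidine synthesis, salvage, breakdown and nucleoside transport, 17 were higher and 13 lower in treated embryos, the median difference was 0.03, 2 (6.67%, beside 11.4%) were non-overlapping and 0 were called. That median ran from -0.05 without ZnO 3 to 0.09 without ZnO 1. TK1, the thymidine kinase of dividing cells, had 35.2 ± 6.53 and 44.7 ± 4.23 FPKM, and DHODH, which acts in the synthesis of UMP, 51.4 ± 3.30 and 44.4 ± 1.46 FPKM (SD, n = 3; limma, adjusted p = 0.933 and 0.950). UPP2, the second uridine phosphorylase, overlapped at 1.18 to 1.91 and 1.26 to 2.02 FPKM. The uridine kinases UCK1 (ratio 0.989) and UCK2 (1.11), which return uridine to UMP, the cytidine deaminase CDA (0.879) and DPYD (1.03), which breaks down uracil, overlapped too. The neighbours of UPP1, C7orf57 and ABCA13, were at or near 0 in all libraries.

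**Figure D2:**
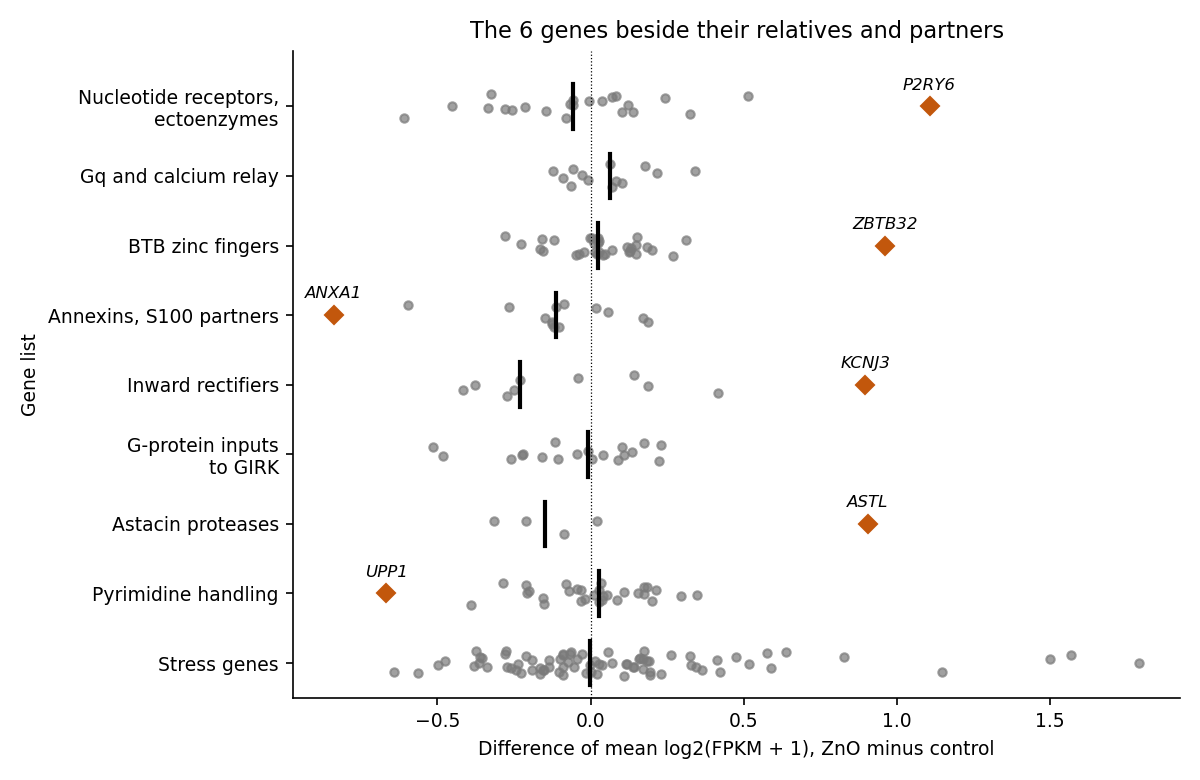
Difference of mean log2(FPKM + 1), ZnO minus control (x axis), for tested genes in 9 lists (y axis). Grey points are genes of the list other than the 6, black bars their medians, orange diamonds the 6 genes, which were chosen on this difference. The list medians lie between -0.23 and 0.06, and P2RY6, at 1.11, lies beyond P2RY1, at 0.51, the highest of its relatives.

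Each of the 6 genes lay outside the range of its own listed relatives, which follows in part from the way they were chosen and is given as a description. P2RY6 (1.11) lay beyond a range of -0.61 to 0.51, KCNJ3 (0.90) beyond -0.42 to 0.42, ZBTB32 (0.96) beyond -0.28 to 0.31, ASTL (0.91) beyond -0.32 to 0.02, ANXA1 (-0.84) beyond -0.60 to 0.19, and UPP1 (-0.67) beyond -0.39 to 0.35, all on the log2(FPKM + 1) scale.

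In controls the order of levels per length was ASTL, ANXA1, UPP1, ZBTB32, P2RY6 and KCNJ3. P2RY6 and KCNJ3 overlapped there, with 1.04 to 1.51 and 0.900 to 1.50 FPKM, and the lowest UPP1 value, 8.84 FPKM, was just above the highest ZBTB32 value, 8.73 FPKM. In treated embryos ZBTB32, at 15.1 to 15.3 FPKM, stood above UPP1, at 4.87 to 6.17 FPKM, so this pair changed places, while ASTL and ANXA1 stayed the most abundant. P2RY6 (3.43 to 4.24 FPKM) and KCNJ3 (2.76 to 3.29 FPKM) no longer overlapped. Their Poisson 95% intervals still did, at 2.69 to 4.31 FPKM for P2RY6 in ZnO 3 and 2.66 to 4.02 FPKM for KCNJ3 in ZnO 2.

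The groups were separated by gaps of unequal width. The lowest value of the higher group was 2.27 times the highest of the lower group for P2RY6, 1.84 times for KCNJ3, 1.73 times for ZBTB32, 1.69 times for ANXA1, 1.46 times for ASTL and 1.43 times for UPP1. Because the 6 genes were chosen for groups that lie apart, their ranks by gap are only a description. On the log2(FPKM + 1) scale P2RY6 had the 5th widest gap of all tested genes, ANXA1 the 8th, ZBTB32 the 9th, KCNJ3 the 14th, ASTL the 22nd and UPP1 the 43rd. By the size of the difference alone they ranked lower, between the 60th (P2RY6) and the 298th (UPP1). UPP1 thus had the narrowest gap of the 6, 0.46, while among the listed genes TXN, thioredoxin, lay just outside the rule, with 736 to 771 FPKM in the control libraries against 388, 702 and 738 in the ZnO libraries. Non-overlapping genes with at least a 2-fold ratio of means numbered 58 higher and 31 lower in treated embryos, and with at least a 1.5-fold ratio 214 and 156.

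**Figure D3:**
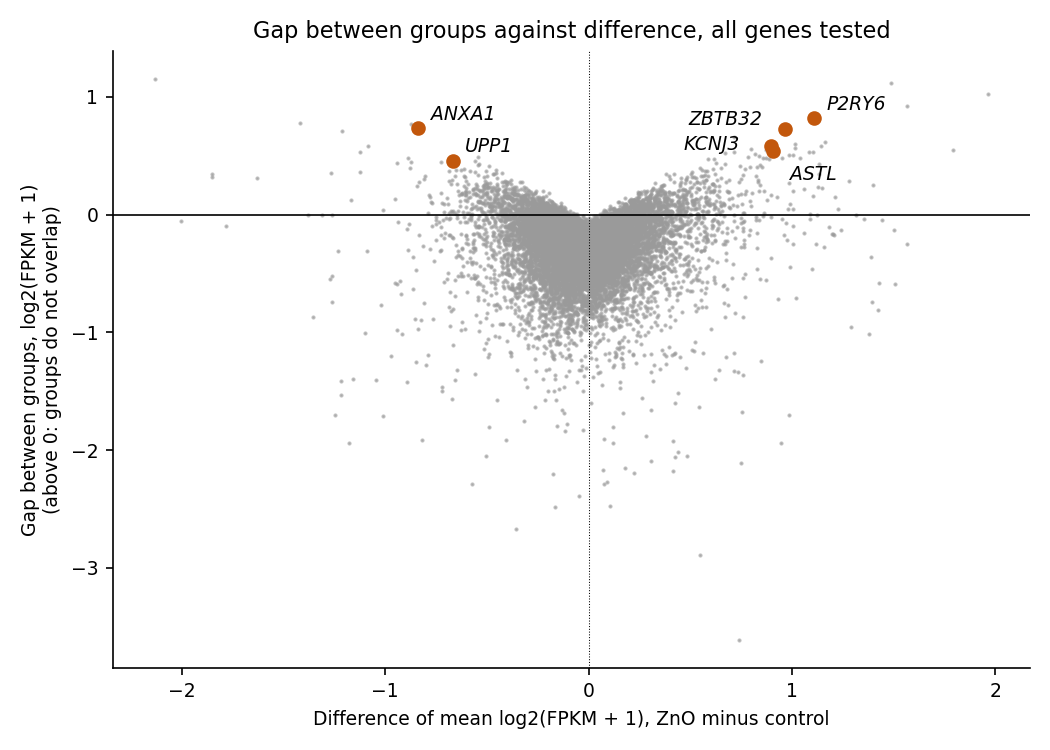
Gap between the groups on the log2(FPKM + 1) scale (y axis, above 0 where the groups do not overlap) against the difference of means, ZnO minus control (x axis), for 13311 genes (grey) and the 6 genes (orange). The 6, chosen because their groups do not overlap, lie near the upper edge, at gaps of 0.46 (UPP1) to 0.82 (P2RY6). The cloud has 1529 genes above 0.

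That ZnO 1 lies away from the controls in the 6 genes follows from how they were chosen, a rule the metallothioneins were not held to, so the values below only set them side by side. MT4, a zinc-binding metallothionein, was at 177 FPKM in ZnO 1, inside the control range of 167 to 211 FPKM, but at 860 and 1136 FPKM in ZnO 2 and ZnO 3. MT3, another metallothionein, was at 83.2 FPKM in ZnO 1, 74.9 to 91.0 in controls, and 332 and 516 in ZnO 2 and ZnO 3. Relative to the control mean on the log2(FPKM + 1) scale, ZnO 1 was at -0.08 for MT4 and -0.03 for MT3. For P2RY6 the values of ZnO 1, 2 and 3 were 1.22, 1.12 and 0.98, and for ANXA1 -0.94, -0.84 and -0.74, so in these genes ZnO 1 lay farthest from the controls. For ZBTB32 it was at 0.97 (0.97 and 0.95 in the others). In KCNJ3 and ASTL it was the treated library nearest to the controls, at 0.82 and 0.71, and in UPP1 it was between the others, at -0.63. The small heat shock gene HSPB9, which is itself non-overlapping, was at 0.93 in ZnO 1 and at 2.36 and 2.08 in the others. With ZnO 1 left out, 4 genes passed the adjusted threshold in limma, which were MT4 (adjusted p = 0.0128, against 0.861 with all libraries), MT3 (0.0314 against 0.861), HSPB9 (0.0314 against 0.746) and a gene the RefSeq table does not name. For MT4, MT3 and the unnamed gene, ZnO 1 is the treated library inside the control range (4.21 FPKM against 3.88 to 7.39 in controls for the unnamed gene). For HSPB9 it is the one nearest to the controls, at 54.6 FPKM against 149 and 122 in ZnO 2 and ZnO 3. The p-values of all 4 thus rest on leaving out the value that disagrees most. Leaving out any other single library called 0 genes. The differences between the 4 genes and the 6 were not tested. Among 79 tested stress genes for metals, oxidants, heat shock, unfolded proteins, p53, hypoxia and immediate early response, which holds 0 of the 6 genes, 10 (12.7%, beside 11.4% of all other genes tested) were non-overlapping and 0 were called, with a median difference of -0.003 that ran from -0.06 without ZnO 3 to 0.07 without ZnO 1. Besides HSPB9, LDHA, lactate dehydrogenase, was higher (35.7 ± 9.67 and 81.4 ± 25.5 FPKM) and GPX8, a peroxidase of the endoplasmic reticulum, lower (21.5 ± 6.59 and 13.2 ± 2.75 FPKM) in each treated library (SD, n = 3; limma, adjusted p = 0.782 and 0.861).

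**Figure D4:**
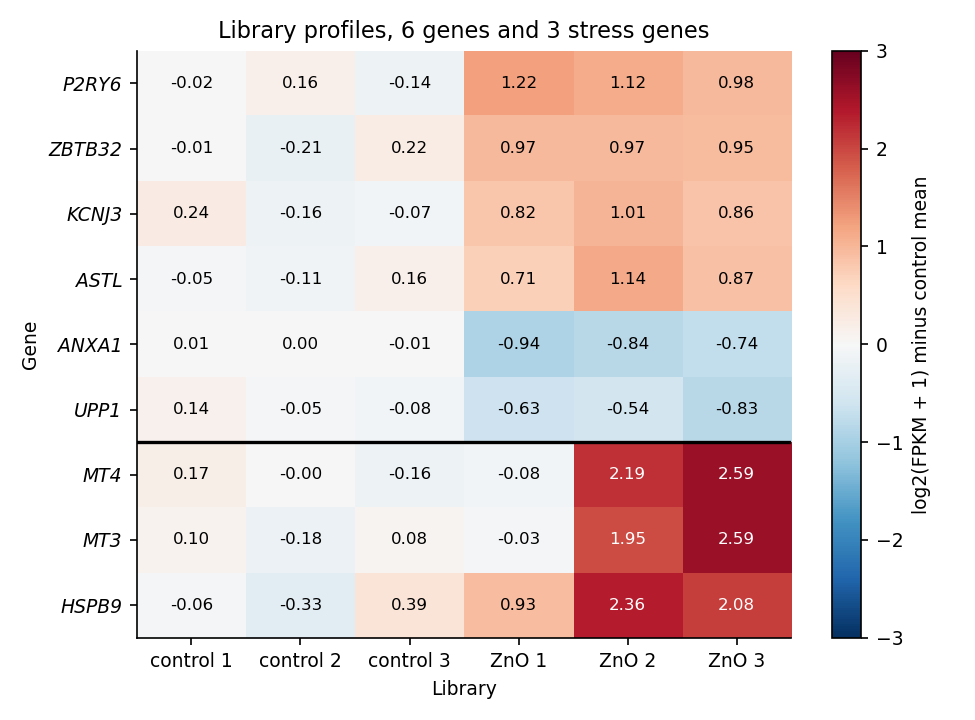
log2(FPKM + 1) of each library (x axis) minus the control mean, for the 6 genes (above the line) and MT4, MT3 and HSPB9 (y axis). Red is above and blue below the control mean. In the upper rows all 3 ZnO libraries lie on one side of the controls because the genes were chosen so (P2RY6 1.22, 1.12 and 0.98), while MT4 was not (-0.08, 2.19 and 2.59).

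The order within a group was not shared by the 6 genes. In controls, control 3 was the lowest for P2RY6, ANXA1 and UPP1 and the highest for ZBTB32 and ASTL, and control 1 was the highest for KCNJ3, ANXA1 and UPP1. Among treated libraries ZnO 1 was the highest for P2RY6 and ZBTB32 and the lowest for KCNJ3, ASTL and ANXA1.

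The genes with the most similar profile over the 6 libraries, out of 8686 other named genes whose mean reached 5 FPKM, were found by Pearson's r of log2(FPKM + 1). These values are a description, since the groups of every one are also apart and the highest of many values were picked. For P2RY6 they were PPRC1 (r = 0.997), SHANK3 (0.984) and TMEM127 (0.982). PPRC1 had 27.0, 29.0 and 25.4 FPKM in the control libraries against 38.5, 37.5 and 36.2 in the ZnO libraries. For ZBTB32 they were BHMT2 (r = 0.993), TBCB (0.991) and CBX6 (0.988), and for ASTL they were MED24 (0.986), LLGL1 (0.986) and again BHMT2 (0.983). For ANXA1 they were LMOD1 (r = 0.998), AACS (0.998) and HNRNPDL (0.995), with LMOD1 at 10.1, 9.95 and 9.83 FPKM in the control libraries against 6.58, 7.11 and 7.34 in the ZnO libraries. For KCNJ3 they were EDA2R (r = 0.981), ARRDC1 (0.972) and PIBPPDD4L (0.969), and for UPP1 they were PID1 (0.979), CASP2 (0.975) and CYP27C1 (0.975).

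The scaling of the libraries did not change the side on which any of the 6 genes lay. This is no test, since the genes were chosen for groups that lie apart. The FPKM sums, 480047 to 559992, differed less between libraries than the narrowest gap, 1.43 times for UPP1. With FPKM rescaled to equal sums, which raises ZnO 1, the ratios were 3.21 for P2RY6, 2.70 for KCNJ3, 2.16 for ZBTB32, 1.97 for ASTL, 0.574 for ANXA1 and 0.617 for UPP1, and all groups stayed apart, as they did when the libraries were centred on their medians. The share of non-overlapping genes that were higher in treated embryos was 48.7% as deposited, 71.0% with equal sums and 55.6% with centring on the median. The balance of the background thus depended on the scaling.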

How the data were processed

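Per the labels' protocols, Trizol RNA (1 µg of total RNA) went into Illumina TruSeq libraries, read as 125 or 150 bp pairs. HTSeq 0.6.1, TopHat2 2.0.12 and Bowtie2 2.2.3 are the tools named in the submitters' processing notes, and mm10, a mouse build, is the build named there, so no coordinates are given. The values deposited by the authors are FPKM, 1 per gene and library. NCBI gene IDs were named from the RefSeq table of GRCg7b, which holds 19704 of 24098 (81.8%).

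Depths and whole reads were solved from the FPKM steps. All 13311 genes tested gave reads within 0.005 of whole numbers, and 2 of 300 did with deliberately wrong depths. The smallest such length is used, so reads are a lower limit where all 6 share a factor.

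The 13311 genes whose mean reached 1 FPKM were fitted with limma 3.58.1 (R 4.3.3) on log2(FPKM + 1), two-sided, adjusted by Benjamini-Hochberg over all 13311 at 0.05. Printed p-values are from this fit, unless a sentence names a refit with a library left out. The fit was tested on simulated data. Poisson intervals are exact. Of the entries for relatives, 263 matched by symbol and 4 by synonym.

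The 6 genes and the lists were chosen with earlier results of these data known. Named besides them are fixed relatives, up to 3 non-overlapping genes per list with the largest differences, the nearest protein-coding neighbours with values in the files (not all are reported here), and the 3 most similar genes. TXN, S100A6, MT3, MT4, ZP3 and the genes at the ends of list ranges were chosen after their values were seen. KCNJ9, BMP1, TYMP and ZBTB7B were not matched and are not analysed here. Each alternative is listed in the closing section.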

Additional observations from a re-analysis of the deposited data

How the results depend on the processing

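Over all genes, the count called was 0 under every alternative with all libraries and 0 to 4 when libraries were left out, the 4 being without ZnO 1. The count of non-overlapping genes was 2163 with no filter, 1041 at a mean of at least 5 FPKM, 1712 with equal sums, 1518 with centring, 1530 on recovered reads scaled by depth and, with fewer libraries to separate, 2095 to 4631 when one was left out. The replicate block, with the shared replicate number as a block, called 0 genes. The deviations of same-numbered libraries from their group means had r = -0.03, -0.37 and 0.41 across genes. Differently numbered libraries ranged from -0.56 to 0.58. Deviations within such small groups depend on each other, so this check cannot decide whether the numbers pair the libraries. The 6 genes kept their direction in every alternative run. For the pseudocounts, the libraries left out and the reads scaled by depth, this was fixed in advance by how the genes were chosen. For equal sums and centring it was no test either, since groups chosen to lie apart leave little room for a change of side. Their differences depended on the pseudocount, by construction. With 0.1 they were 1.55 for P2RY6 and 1.33 for KCNJ3, and on depth-scaled log2 reads from voom 1.61 and 1.40. With 5 they were 0.50 for P2RY6, 0.38 for KCNJ3, 0.71 for ZBTB32, -0.76 for ANXA1 and -0.45 for UPP1. With any 1 library left out they were 1.04 to 1.19 for P2RY6, 0.82 to 1.02 for KCNJ3, 0.86 to 1.07 for ZBTB32, 0.79 to 1.01 for ASTL, -0.89 to -0.79 for ANXA1 and -0.73 to -0.59 for UPP1. Of 129 alternative values for list medians, 2 moved by more than the spread (BTB zinc fingers to 0.08 with equal sums, the Gq relay to -0.03 without ZnO 3) and 22 changed sign. Under a scaling alternative the sign changed for the GIRK inputs (0.04 with equal sums), the stress genes (0.05) and the egg coat list of 1 gene (0.05), all with medians of -0.01 or nearer to 0 as deposited. The inward rectifier median ranged from -0.36 (voom) to -0.04 (no filter), and that list had no gene at 5 FPKM. P2RY6 and KCNJ3 rest on 24 to 95 reads per library, where depth limits precision most.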
